A study of Homo sapiens with 12 samples.

Results

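The genes described here encode the aminoacyl-tRNA synthetases, the enzymes that attach each amino acid to its tRNA. They were chosen by name: 35 genes, 19 for cytosolic and 16 for mitochondrial enzymes, of 60902 genes in the deposited values, each matched to 1 Ensembl identifier. The list does not hold every human synthetase. RNA was sequenced in 4 groups of 3 replicates from A549/DDP cells. These derive from A549, a human lung adenocarcinoma line, and resist cisplatin (DDP), a platinum compound that forms DNA crosslinks. CON cells stayed in normal medium, and DDP cells stayed in normal medium and received cisplatin. TRF stands for time-restricted feeding: in each 24 h cycle, 6 h in normal medium alternated with 18 h in medium free of serum and glucose, and TRF+DDP joined that schedule with the drug. All groups share the resistant line. The legend of the study's transcriptome results gives 2 µg/mL DDP for 48 h after its PCR panel, and no dose or time is given for the sequencing by itself. The line was kept in DDP to maintain its resistance, so CON and TRF cells had met the drug before. Whether and when that DDP was withdrawn before the experiment is not described.

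Protein synthesis uses 2 sets of synthetases, both encoded in the nucleus. The cytosolic set serves the ribosomes that make most of the cell's protein, and the mitochondrial set serves the ribosomes that translate the few genes of mitochondrial DNA. Most amino acids have a separate gene for each compartment, named 1 and 2, while GARS1 and KARS1 make the enzymes of both compartments from a single gene. Several cytosolic enzymes (EPRS1, IARS1, KARS1, LARS1, MARS1, QARS1 and RARS1 here) sit together in the multisynthetase complex, held by the scaffold proteins AIMP1, AIMP2 and EEF1E1. Cytosolic phenylalanyl-tRNA synthetase is built from FARSA and FARSB subunits, and its mitochondrial counterpart FARS2 is a single chain. Many cytosolic synthetase genes are known targets of ATF4, the transcription factor of the amino acid response.

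Values are the deposited TPM (transcripts scaled to a fixed library total), a level per transcript length, so a change in TPM is a change in share, and fewer cells of a type cannot be told apart from less RNA per cell. Read depth is unknown. From 13029 to 14028 genes per library reached 1 TPM. The 37 genes of mitochondrial DNA, which are separate from the nuclear genes described here, took 10.3 to 10.8% of the TPM of CON libraries, 9.88 to 9.99% of DDP libraries, 6.37 to 8.84% of TRF libraries and 8.28 to 8.55% of TRF+DDP libraries. Of 5 epithelial markers, KRT8 and KRT18 were above 1 TPM (the list summed to 912 to 963 TPM with CON, 1276 to 1441 with DDP, 1287 to 1431 with TRF and 1625 to 1731 with TRF+DDP), while KRT19, EPCAM and CDH1 averaged 0.122, 0.0708 and 0.177 TPM over all libraries. The 4 leukocyte markers summed to at most 0.59 TPM in any library and the 3 endothelial markers to at most 0.13, with CD3E at 0 throughout. The 3 fibroblast markers, nearly all COL1A1, summed to 14 to 16.6 TPM (CON), 16.3 to 20.7 (DDP), 10.5 to 11.9 (TRF) and 5.88 to 6.94 TPM (TRF+DDP). The part of these levels in the results was not tested.

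In CON cells the cytosolic synthetases were the more abundant set. Their mean levels ran from 25.9 ± 2.37 TPM for EPRS1, the fused glutamyl and prolyl enzyme, to 265 ± 2.43 TPM for QARS1, the glutaminyl enzyme (SD, n = 3, here and below), with a median of 66.6 TPM. The mitochondrial set ran from 4.09 ± 0.372 TPM for PARS2, the prolyl enzyme, to 39.5 ± 0.427 TPM for HARS2, the histidyl enzyme, with a median of 13.5 TPM. The ranges met at the edge, with 2 mitochondrial genes (HARS2 and IARS2) above the lowest cytosolic gene and 5 cytosolic genes (LARS1, CARS1, FARSB, VARS1 and EPRS1) below the highest mitochondrial one. QARS1, MARS1, AARS1 and KARS1 led the order and each stood clear of the next in every CON library. Of the 34 neighbours in the order, 18 overlapped in their CON libraries, among them GARS1 (62.4 ± 1.43 TPM), YARS1 (62.2 ± 2.48) and FARSA (61.8 ± 4.10), and MARS2 (8.29 ± 0.712), VARS2 (8.17 ± 1.23) and FARS2 (7.67 ± 1.38).

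Summed over the 19 cytosolic genes, the level was 1548 ± 7.48 TPM in CON cells, 1617 ± 27.2 in DDP cells, 1906 ± 23.7 in TRF cells and 1956 ± 41.1 in TRF+DDP cells. The libraries of both TRF groups were thus above all libraries in normal medium. Without AARS1 and QARS1, the 2 cytosolic genes that fell, the sums were 1154 ± 6.02, 1245 ± 14.2, 1696 ± 14.3 and 1758 ± 37.2 TPM in the same order. These 2 genes were left out because of their fall, so a larger rise of the remaining sum was fixed in advance. For the 16 mitochondrial genes the sum was 257.6 ± 3.47 TPM in CON cells, 259.7 ± 7.02 in DDP cells, 270.1 ± 4.31 in TRF cells and 260.6 ± 8.04 in TRF+DDP cells, with the TRF libraries above the CON libraries and those of TRF+DDP overlapping those of DDP and CON.

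**Figure D1:**
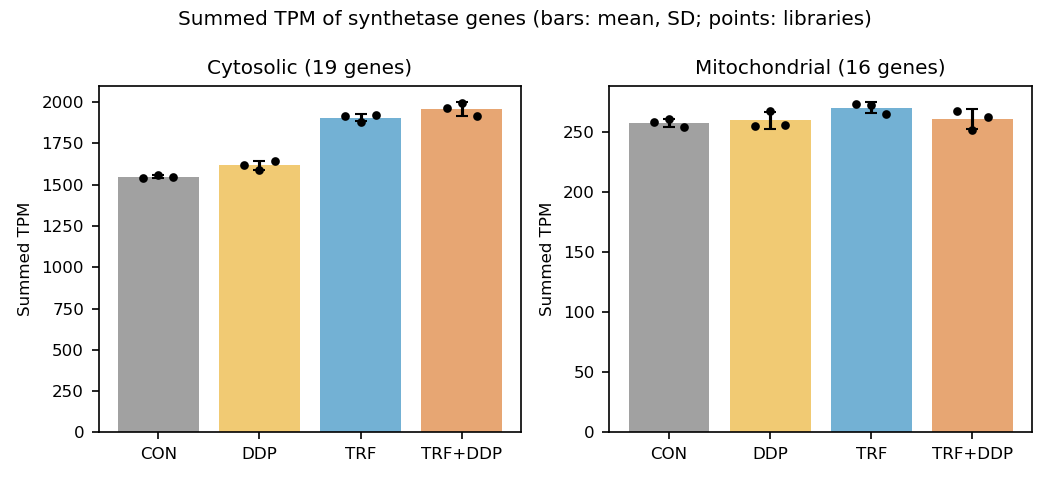
Summed TPM of the 19 cytosolic (left) and 16 mitochondrial (right) synthetase genes in each group, with bars for the mean of 3 libraries, black lines for the SD and points for the libraries; both vertical axes start at 0. The cytosolic sum is 1548 TPM in CON and 1906 in TRF, and the mitochondrial sum stays between 257.6 and 270.1 TPM as a group mean.

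The first question is what the TRF medium did without the drug. TRF against CON, 8 synthetases rose and 4 fell, and the cytosolic enzymes made up most of the rises: 7 of 19 cytosolic genes rose and 2 fell, against 1 and 2 of 16 mitochondrial genes. The rises were led by WARS1, the tryptophanyl enzyme, followed by VARS1, SARS1, GARS1 and RARS1, while QARS1 and AARS1 fell. A gene is said to rise or fall where limma, fitted over all 13854 genes tested on log2(TPM + 1), gave an adjusted p (Benjamini-Hochberg) below 0.05 together with more than a 1.5-fold difference. By the same rule 8.41% of all genes tested rose and 17.1% fell. The median log2 fold change was 0.46 for the cytosolic genes, 0.15 for the mitochondrial genes and -0.11 for all genes tested. The TRF and CON libraries did not overlap for 19 synthetases on the higher side and 7 on the lower (25.7% and 38.8% of all genes tested). TMM-style scaling, which uses a trimmed mean of log ratios in place of the library total, moved the median of all genes from -0.11 to -0.0096. It gave 11 rises and 3 falls among the synthetases, and 1621 rises and 1858 falls in place of 1165 and 2375 among all genes tested.

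The same change of medium can be measured a second time, in the presence of the drug, with no library in common. TRF+DDP against DDP, 7 synthetases rose and 3 fell, where 11.8% of all genes tested rose and 21.4% fell. All 7 rises were cytosolic. None of the 16 mitochondrial genes passed both thresholds upward by limma, and 3 were higher at an unadjusted p under 0.05. The share of all genes at that unadjusted threshold was not computed. The median log2 fold change was 0.40 for the cytosolic genes, 0.042 for the mitochondrial genes and -0.096 for all genes tested. Libraries did not overlap for 18 synthetases on the higher side and 7 on the lower (29.2% and 41.0% of all genes tested). Both measurements called 9 synthetases, each in the same direction (WARS1, VARS1, SARS1, GARS1, RARS1, FARSA and EPRS1 higher, AARS1 and QARS1 lower). CARS2, IARS2 and VARS2 were called without the drug only, and FARS2 with it only. The sign of the change was the same in 16 of 19 cytosolic genes, 10 of 16 mitochondrial genes and 77.5% of all genes tested. Across the 35 genes, which are not independent replicates, Pearson's r between the changes was 0.76 (0.88 for the cytosolic and 0.37 for the mitochondrial genes), beside 0.69 over all genes tested.

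**Figure D2:**
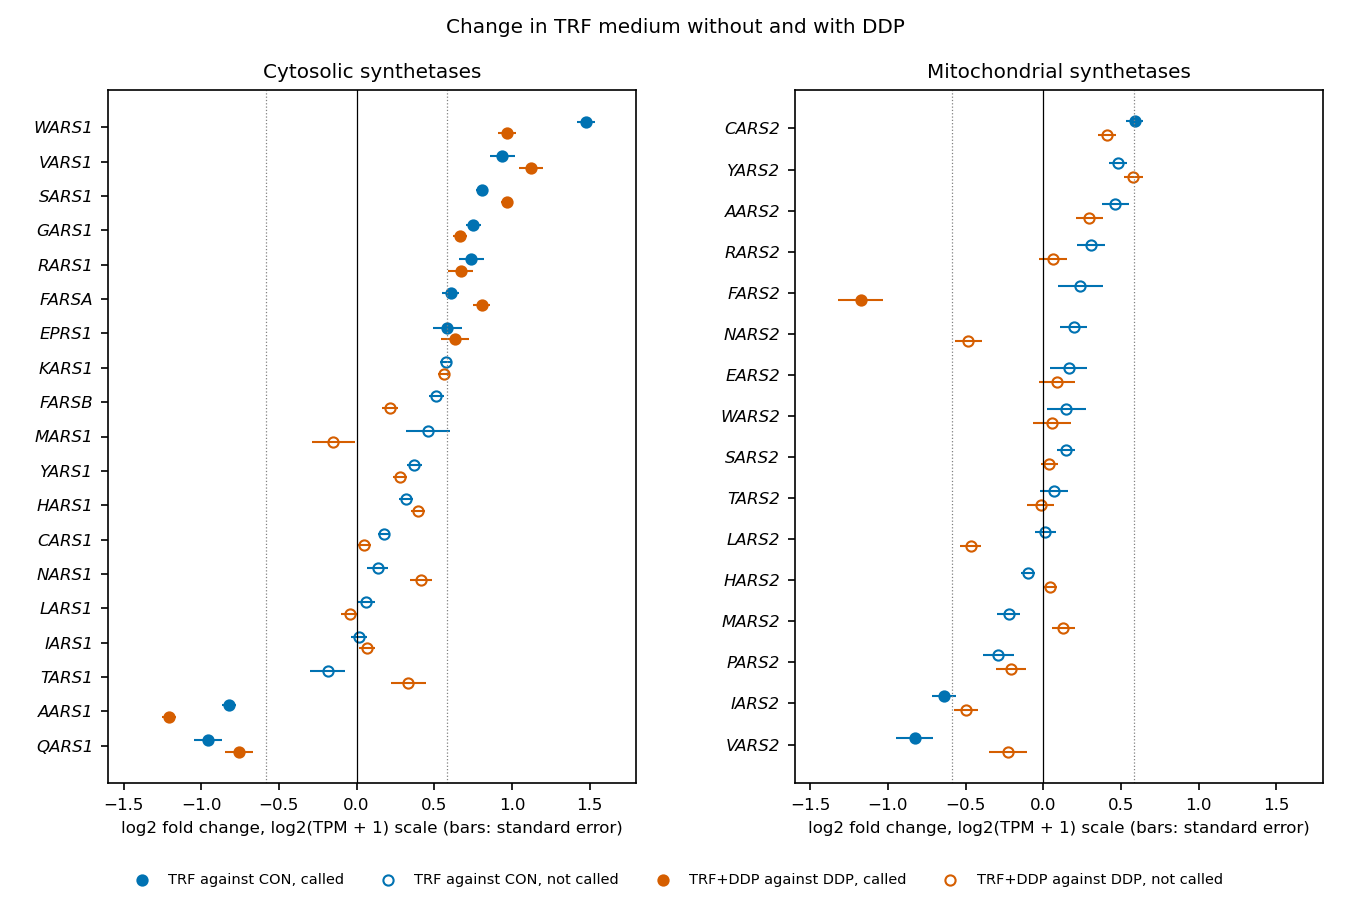
Log2 fold change on the log2(TPM + 1) scale (horizontal axis, bars for the standard error from limma) of each cytosolic (left) and mitochondrial (right) synthetase for TRF against CON (blue) and TRF+DDP against DDP (orange), with filled points for called genes and dotted lines at a fold of 1.5. WARS1 is the highest at 1.48 without the drug and AARS1 the lowest at -1.21 with it, while most mitochondrial points lie inside the dotted lines.

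WARS1 (chr14:100333788-100376805 in GENCODE v29, GRCh38) charges tryptophan tRNA and is also known as an interferon-gamma response gene. Its libraries were at 72.7, 73.7 and 78.1 TPM in CON cells, 86.7, 80.7 and 89.8 in DDP cells, 214, 220.2 and 197 in TRF cells and 169.8, 178 and 159 in TRF+DDP cells. Every TRF library was above 89.8 TPM, the highest value in normal medium, and the TRF+DDP libraries lay between the TRF libraries and those in normal medium. TRF against CON, limma gave a log2 fold change of 1.48 (standard error, SE, 0.058, adjusted p = 1.25e-09), or 2.81-fold in TPM. With the drug it was 0.97 (SE 0.058, adjusted p = 2.26e-08). The antisense gene AL157871.4 (0.199 TPM) and WDR25 (11.1 TPM) overlap WARS1 on the opposite strand, over 20272 and 388 bases, and the use of strand in the counting is not given.

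VARS1, the valyl enzyme, was among the lowest cytosolic genes in CON. Its libraries were at 26.1, 30.2 and 27.99 TPM in CON cells, 25.9, 25.6 and 26.6 in DDP cells, 58.1, 48.5 and 57.9 in TRF cells and 62.5, 58.3 and 53.2 in TRF+DDP cells. The values in TRF medium were all above those in normal medium, with log2 fold changes of 0.94 (SE 0.080, adjusted p = 8.52e-07) without the drug and 1.12 (SE 0.080, adjusted p = 1.06e-07) with it. SARS1 charges serine tRNA and also supplies the seryl-tRNA from which selenocysteine is made. It was at 92.6, 97.4 and 98.1 TPM in CON cells, 113, 113 and 116 in DDP cells, 175, 163 and 169 in TRF cells and 227, 229 and 218 in TRF+DDP cells. Here the 4 groups separated fully and rose in the order CON, DDP, TRF and TRF+DDP. The log2 fold change of SARS1 was 0.81 (SE 0.040, adjusted p = 8.1e-09) for TRF against CON, 0.97 (SE 0.040, adjusted p = 1.04e-09) for TRF+DDP against DDP and 1.22 for TRF+DDP against CON, 2.34-fold in TPM.

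GARS1, which charges glycine tRNA in both compartments, was at 62.5, 63.8 and 60.9 TPM in CON cells, 64.1, 67.5 and 70.8 in DDP cells, 105, 110.5 and 102 in TRF cells and 105, 111 and 107 in TRF+DDP cells. Both TRF groups were above both groups in normal medium and overlapped each other, with log2 fold changes of 0.75 (SE 0.047, adjusted p = 5.79e-08) and 0.67 (SE 0.047, adjusted p = 1e-07). RARS1, the arginyl enzyme of the complex, was at 72.4, 71.9 and 61.7 TPM in CON cells, 70.99, 81.8 and 67.4 in DDP cells, 105, 119.7 and 121 in TRF cells and 119, 114 and 118 in TRF+DDP cells. Its libraries in TRF medium were again above all those in normal medium, with 0.74 (adjusted p = 7.27e-06, limma) and 0.67 (adjusted p = 1.23e-05). KARS1, the lysyl enzyme and the other gene that serves both compartments, averaged 119 ± 2.96 TPM in CON cells, 111 ± 3.17 in DDP cells, 177 ± 6.18 in TRF cells and 164 ± 2.81 in TRF+DDP cells. Its log2 fold changes of 0.58 and 0.56 had limma adjusted p-values of 1.15e-07 and 8.64e-08 but lay just under the 1.5-fold threshold, which both passed after TMM-style scaling (0.70 and 0.68) and the former also without CON replicate 2 (0.60) or TRF replicate 1 (0.60).

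EPRS1 carries glutamyl and prolyl activity in 1 chain. Its libraries were at 27.6, 26.8 and 23.1 TPM in CON cells, 32.2, 29.9 and 27.8 in DDP cells, 34.2, 43.98 and 39.9 in TRF cells and 45.8, 48.5 and 46.6 in TRF+DDP cells. The groups in TRF medium were again the higher ones, by 0.59 (SE 0.091, adjusted p = 0.000135) and 0.63 (SE 0.091, adjusted p = 5.58e-05) on the log2 scale. The first of these was just past the fold threshold and was under it without CON replicate 3 (0.51), TRF replicate 2 (0.50) or TRF replicate 3 (0.57), and the second was under it without DDP replicate 3 (0.58). NARS1 charges asparagine tRNA. It was at 54.3, 51.6 and 50.3 TPM in CON cells, 57.2, 64.6 and 59.1 in DDP cells, 54.7, 64.6 and 53.1 in TRF cells and 79.9, 80.8 and 81.5 in TRF+DDP cells. TRF+DDP stood above every other library, and the TRF and CON libraries overlapped. NARS1 rose only in TRF+DDP against CON among the pairwise comparisons, with a log2 fold change of 0.62 (SE 0.070, adjusted p = 5.59e-06), and lay under the fold threshold after quantile normalization (0.56), while it was 0.14 in TRF against CON.

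The subunits of cytosolic phenylalanyl-tRNA synthetase differed in the combination. FARSA, the catalytic subunit, was at 58.4, 60.5 and 66.3 TPM in CON cells, 71.03, 65.2 and 68.3 in DDP cells, 94.6, 90.5 and 98.5 in TRF cells and 119.7, 123 and 117 in TRF+DDP cells. Its groups in TRF medium were above those in normal medium, with TRF+DDP the highest. FARSA rose with log2 fold changes of 0.61 (SE 0.055, adjusted p = 1.29e-06) and 0.81 (SE 0.055, adjusted p = 6.58e-08), and the first was below the fold threshold without CON replicate 1 (0.57) or TRF replicate 3 (0.58). FARSB averaged 36.99 ± 1.22 TPM in CON cells, 37.6 ± 1.09 in DDP cells, 53.2 ± 1.85 in TRF cells and 43.8 ± 2.05 in TRF+DDP cells. Its highest group was TRF, and its changes of 0.51 and 0.21 were under the fold threshold, which the former passed after TMM-style scaling (0.63). The ratio of FARSA to FARSB TPM, computed after their values were seen, was 1.67 ± 0.131 in CON cells, 1.81 ± 0.0939 in DDP cells, 1.78 ± 0.110 in TRF cells and 2.74 ± 0.117 in TRF+DDP cells, and the TRF+DDP libraries (2.60 to 2.82) were above all 9 others.

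AARS1 and QARS1 moved the other way. AARS1, the alanyl enzyme, lies at chr16:70252295-70289543. Its libraries were at 124, 129 and 133 TPM in CON cells, 125, 126 and 135 in DDP cells, 74.4, 70.3 and 72.1 in TRF cells and 57.04, 54.3 and 53.5 in TRF+DDP cells. CON and DDP overlapped, TRF was lower and TRF+DDP lower still, with no overlap among these 3 levels. The gene fell by 0.82 on the log2 scale in TRF against CON (SE 0.046, adjusted p = 1.93e-08, limma) and by 1.21 in TRF+DDP against DDP (SE 0.046, adjusted p = 4.62e-10). QARS1, the most abundant synthetase in CON and a member of the complex, lies at chr3:49095932-49105135. It was at 264, 268 and 265 TPM in CON cells, 255, 226 and 247 in DDP cells, 158, 114 and 139.8 in TRF cells and 143, 147 and 140.1 in TRF+DDP cells. All 6 libraries in TRF medium were below all 6 in normal medium, and TRF spanned the TRF+DDP values. QARS1 fell by 0.96 without the drug (SE 0.091, adjusted p = 2.43e-06) and by 0.75 with it (SE 0.091, adjusted p = 1.33e-05).

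AARS1 and SARS1 are both commonly listed as ATF4 targets and moved in opposite directions, so their promoter stretches are shown side by side. The RefSeq sequences upstream of the start are printed up to the boundary of the GENCODE v29 gene, 5′ to 3′ on the strand of the gene, with any match to TGATGCA (the core of the element that C/EBP and ATF proteins bind) or to CACGTG (the E-box bound by MYC) on either strand in capitals. The AARS1 stretch of 213 bases is chr16:70289544-70289756 on the minus strand, and the SARS1 stretch of 250 bases is chr1:109213643-109213892 on the plus strand (GRCh38.p14).
AARS1: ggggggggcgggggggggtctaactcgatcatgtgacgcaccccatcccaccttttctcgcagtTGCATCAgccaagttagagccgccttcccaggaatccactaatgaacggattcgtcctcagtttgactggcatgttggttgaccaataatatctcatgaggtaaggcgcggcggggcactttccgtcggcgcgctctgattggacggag
SARS1: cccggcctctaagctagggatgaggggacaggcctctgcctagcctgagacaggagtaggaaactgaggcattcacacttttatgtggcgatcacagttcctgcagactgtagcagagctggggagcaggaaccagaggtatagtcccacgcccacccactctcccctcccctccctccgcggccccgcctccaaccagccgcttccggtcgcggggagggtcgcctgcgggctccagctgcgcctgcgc
The AARS1 stretch holds the first motif, read as TGCATCA, 186 bases before the start, and the SARS1 stretch holds neither. Of the 35 synthetases 30 had a RefSeq promoter in the table, and LARS1, VARS1, YARS1, AARS2 and VARS2 had none. Within the 250 bases before the start, TGATGCA was found in 2 of the 30 genes, AARS1 and IARS1 (12 bases before the start, read as TGCATCA), and in 2.16% of all 35116 windows (2.68% of genes). CACGTG was found in 3 genes, IARS1, MARS2 and EARS2, and in 6.34% of all windows (7.73% of genes). These counts use the full 250 bases before each RefSeq start and, unlike the printed stretches, were not cut at the GENCODE v29 boundary. The TGATGCA match of IARS1 and the CACGTG match of EARS2 lie inside the GENCODE v29 gene. IARS1, the isoleucyl enzyme with a match to each, averaged 66.6 ± 2.42 TPM in CON cells, 69.6 ± 1.55 in DDP cells, 67.4 ± 4.28 in TRF cells and 72.9 ± 2.73 in TRF+DDP cells, and its libraries in TRF and CON overlapped.

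**Figure D3:**
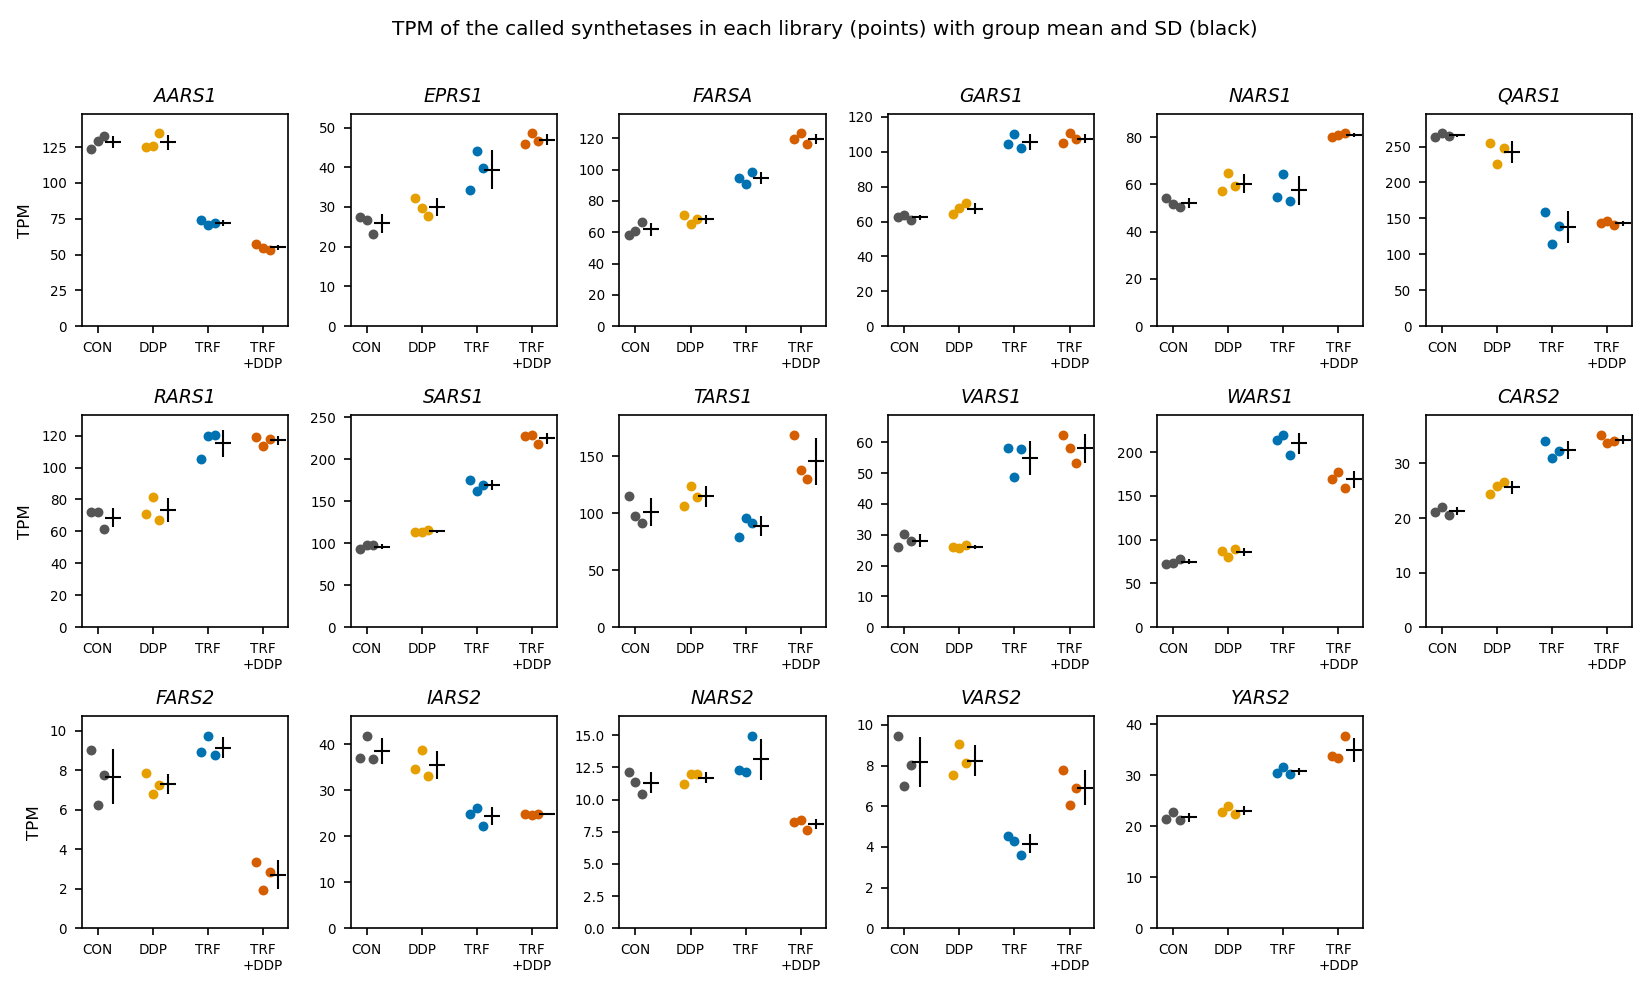
TPM (vertical axes from 0) of the 17 synthetases called in at least 1 pairwise comparison, with a point for each of the 3 libraries of CON, DDP, TRF and TRF+DDP and black lines for the group mean and SD. AARS1 and QARS1 step down in both TRF groups, WARS1, VARS1, SARS1, GARS1 and RARS1 step up, and FARS2 and NARS2 are lowest in TRF+DDP.

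Among mitochondrial enzymes, CARS2 and YARS2 were the ones that rose against CON. CARS2, the cysteinyl enzyme, was at 21.1, 22.1 and 20.6 TPM in CON cells, 24.4, 25.9 and 26.7 in DDP cells, 34.2, 30.9 and 32.2 in TRF cells and 35.3, 33.8 and 34.1 in TRF+DDP cells. Both TRF groups were above both groups in normal medium, and the log2 fold change was 0.59 (SE 0.056, adjusted p = 2.08e-06) in TRF against CON and 0.67 (SE 0.056, adjusted p = 3.83e-07) in TRF+DDP against CON. The former was below the fold threshold without CON replicate 1 (0.58), CON replicate 3 (0.57) or TRF replicate 1 (0.55). ING1 (11.9 TPM) overlaps CARS2 over 868 bases on the opposite strand, so the CARS2 value is uncertain without strand. YARS2, the tyrosyl enzyme, was at 21.4, 22.8 and 21.1 TPM in CON cells, 22.8, 24.02 and 22.3 in DDP cells, 30.4, 31.5 and 30.3 in TRF cells and 33.7, 33.4 and 37.7 in TRF+DDP cells. Its groups in TRF medium were the higher ones, and it passed the fold threshold in TRF+DDP against CON alone, with 0.66 (SE 0.059, adjusted p = 7.83e-07), beside 0.48 in TRF against CON and 0.58 in TRF+DDP against DDP, which both passed the threshold after TMM-style scaling (0.59 and 0.70). In the annotation YARS2 overlaps DNM1L over 18161 bases on the opposite strand, so its value is uncertain without strand.

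IARS2 and VARS2 fell in TRF medium. IARS2, the isoleucyl enzyme, was at 37.05, 41.9 and 36.9 TPM in CON cells, 34.6, 38.8 and 33.1 in DDP cells, 24.9, 26.2 and 22.3 in TRF cells and 24.9, 24.7 and 24.8 in TRF+DDP cells. The 6 libraries in TRF medium were below the 6 in normal medium. The log2 fold change was -0.64 (SE 0.075, adjusted p = 1.36e-05) in TRF against CON and -0.62 (SE 0.075, adjusted p = 1.24e-05) in TRF+DDP against CON, while -0.50 in TRF+DDP against DDP was under the fold threshold. The former was under it without CON replicate 2 (-0.58), without TRF replicate 3 (-0.58) and after TMM-style scaling (-0.52), and the latter without CON replicate 2 (-0.56) and after that scaling (-0.58). VARS2, the valyl enzyme, was at 9.47, 7.02 and 8.03 TPM in CON cells, 7.53, 9.06 and 8.15 in DDP cells, 4.52, 4.31 and 3.62 in TRF cells and 7.77, 6.08 and 6.90 in TRF+DDP cells. TRF alone stood below every other library, while TRF+DDP overlapped DDP. VARS2 fell by 0.83 in TRF against CON (SE 0.12, adjusted p = 7.75e-05, limma). Its value is uncertain because GTF2H4 shares 5865 bases with it on the same strand, at 23.8 TPM.

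The cytosolic and mitochondrial genes were also compared in pairs by amino acid. Each of 15 pairs was set as the difference of log2(TPM + 1) in each library, with FARS2 in 2 of them, and no test was run. TRF against CON, the difference moved toward the cytosolic gene in 10 pairs and toward the mitochondrial gene in 5, with no overlap of libraries in 9 and 2 (single genes did not overlap, either way, in 64.4% of all genes tested). TRF+DDP against DDP, these were 11 and 4 pairs, with no overlap in 11 and 3 (70.2% of single genes). The share among differences of other gene pairs was not computed, so the pair counts cannot be set against it. The median shift was 0.37 and 0.56 toward the cytosolic gene. The pairs include CARS2, HARS2, MARS1, SARS2, VARS2, YARS1 and YARS2, whose values are uncertain because other genes overlap them.

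The valyl pair moved the most in TRF against CON, by 1.77 on the log2 scale, though its VARS2 value is uncertain. The ratio of VARS1 to VARS2 TPM was 3.51 ± 0.769 in CON cells, 3.18 ± 0.321 in DDP cells, 13.4 ± 2.40 in TRF cells and 8.44 ± 1.0 in TRF+DDP cells. The alanyl pair went the other way: the ratio of AARS1 to AARS2 was 22.96 ± 0.141 in CON cells, 20.5 ± 0.840 in DDP cells, 8.97 ± 1.15 in TRF cells and 6.93 ± 0.180 in TRF+DDP cells, lower in every library of TRF medium than in normal medium. For the phenylalanyl pair the ratio of FARSA to FARS2 was 8.24 ± 1.63 in CON cells, 9.36 ± 0.270 in DDP cells, 10.4 ± 1.0 in TRF cells and 46.6 ± 14.6 in TRF+DDP cells, high in the combination alone. The ratio of NARS1 to NARS2, the asparaginyl pair, was 4.62 ± 0.171 in CON cells, 5.15 ± 0.236 in DDP cells, 4.45 ± 0.892 in TRF cells and 10.0 ± 0.586 in TRF+DDP cells, again with TRF+DDP above the other groups. The isoleucyl ratio IARS1 to IARS2 was 1.73 ± 0.0822 in CON cells, 1.97 ± 0.117 in DDP cells, 2.76 ± 0.137 in TRF cells and 2.94 ± 0.102 in TRF+DDP cells, with IARS2 the member of the pair that fell. For the cysteinyl pair, where the mitochondrial gene gained, the ratio of CARS1 to CARS2 was 1.74 ± 0.0608 in CON cells, 1.66 ± 0.0752 in DDP cells, 1.30 ± 0.0409 in TRF cells and 1.28 ± 0.0480 in TRF+DDP cells. The CARS2 value in this ratio is uncertain, as said above.

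DDP alone in normal medium changed no synthetase past both thresholds. By limma 0 of 35 rose and 0 fell, where 1.86% of all genes tested rose and 0.159% fell. At an unadjusted p under 0.05, 9 were higher and 2 lower, and the share of all genes at that threshold was not computed. With an adjusted p under 0.05 but a small fold were SARS1 with a log2 fold change of 0.25 (SE 0.040, adjusted p = 0.00201), CARS2 with 0.26 (SE 0.056, adjusted p = 0.0107) and CARS1, the cytosolic cysteinyl enzyme, with 0.20 (SE 0.040, adjusted p = 0.00845). The median was 0.094 for the cytosolic genes, 0.049 for the mitochondrial genes, which TMM-style scaling and quantile normalization turned to -0.027 and -0.038, and 0.065 for all genes tested. The libraries of DDP and CON did not overlap for 9 synthetases on the higher side and 3 on the lower (25.7% and 8.89% of all genes tested).

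In TRF medium the same drug changed 4 synthetases, 3 of them mitochondrial. TRF+DDP against TRF, TARS1 and VARS2 rose and FARS2 and NARS2 fell, where 10.2% of all genes tested rose and 6.10% fell. The median was 0.067 for the cytosolic genes, which TMM-style scaling and quantile normalization turned to -0.0098 and -0.027, -0.031 for the mitochondrial genes and 0.063 for all genes tested. After quantile normalization or TMM-style scaling 1 rose and 2 fell, since VARS2 was then under the fold threshold (0.51 and 0.56). Of all 13854 genes tested, 1049 rose and 1066 fell after the former, and 1169 and 1061 after the latter. The libraries did not overlap for 11 synthetases on the higher side and 9 on the lower (31.6% and 22.9% of all genes tested).

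FARS2, the mitochondrial phenylalanyl enzyme, lies at chr6:5261044-5829192 and spans 568 kb. Its libraries were at 9.0, 6.24 and 7.77 TPM in CON cells, 7.84, 6.80 and 7.25 in DDP cells, 8.91, 9.75 and 8.76 in TRF cells and 3.37, 1.95 and 2.83 in TRF+DDP cells. The TRF+DDP libraries were below the other 9, and the TRF libraries were above those of DDP while CON overlapped both. FARS2 had log2 fold changes of -1.47 (SE 0.15, adjusted p = 5.87e-06) against TRF, -1.18 (SE 0.15, adjusted p = 1.51e-05) against DDP and -1.23 against CON, so it was 0.297-fold of the TRF level in TPM. NARS2, the mitochondrial asparaginyl enzyme, was at 12.1, 11.3 and 10.5 TPM in CON cells, 11.2, 11.9 and 11.96 in DDP cells, 12.3, 12.1 and 14.96 in TRF cells and 8.25, 8.39 and 7.64 in TRF+DDP cells. Again TRF+DDP was the lowest group with no overlap. NARS2 fell by 0.63 against TRF (SE 0.087, adjusted p = 9.56e-05, limma), and this change was under the fold threshold without TRF replicate 3 (-0.54). LARS2, the mitochondrial leucyl enzyme, averaged 17.2 ± 0.325 TPM in CON cells, 17.8 ± 0.311 in DDP cells, 17.4 ± 1.60 in TRF cells and 12.6 ± 0.597 in TRF+DDP cells, with -0.43 against TRF, under the fold threshold.

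TARS1, the cytosolic threonyl enzyme, was at 115, 98.04 and 91.3 TPM in CON cells, 106, 124 and 114 in DDP cells, 79.5, 96.1 and 91.2 in TRF cells and 169, 138 and 130.3 in TRF+DDP cells. The TRF+DDP libraries were above all others, and the TRF and CON libraries overlapped. Its log2 fold change was 0.70 (SE 0.11, adjusted p = 0.000337) against TRF and 0.33 against DDP. VARS2, whose libraries are given above, went from 4.15 ± 0.471 TPM in TRF to 6.92 ± 0.845 in TRF+DDP with no overlap, a log2 fold change of 0.62 (SE 0.12, adjusted p = 0.00115). Besides the scalings above, its change was under the fold threshold without TRF replicate 3 (0.54) or TRF+DDP replicate 1 (0.54).

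Whether the drug acted differently in the 2 media was tested as an interaction, the DDP effect in TRF medium minus that in normal medium, called on the limma adjusted p alone. It was called for 11 of 35 synthetases (31.4%), 6 cytosolic and 5 mitochondrial, beside 29.8% of all genes tested; it was positive for 4 (13.5% of all genes) and negative for 7 (16.3%). FARS2 had the largest difference, -1.41 (SE 0.21, adjusted p = 0.000338), followed by NARS2 with -0.68 (SE 0.12, adjusted p = 0.00158) and MARS1 with -0.61 (SE 0.20, adjusted p = 0.0414). VARS2 at 0.60 and TARS1 at 0.52 were the largest on the positive side. The call of MARS1 was lost in 12 of 20 alternatives, a replicate block among them (adjusted p = 0.0527), and that of TARS1 in 7. MARS1, the methionyl enzyme, varied within groups: it was at 145, 155 and 161 TPM in CON cells, 174, 149.9 and 189 in DDP cells, 231, 180.5 and 228 in TRF cells and 125, 178 and 162 in TRF+DDP cells. The TRF+DDP libraries overlapped both groups in normal medium and were below those in TRF. DDIT3, a stress response transcription factor, overlaps MARS1 over 982 bases on the opposite strand, so reads of the 2 genes may be mixed, which was not tested. DDIT3 had log2 fold changes of -1.21 in TRF against CON and 2.03 in TRF+DDP against TRF, where MARS1 had 0.46 and -0.47. MARS2, the mitochondrial methionyl enzyme, averaged 8.29 ± 0.712 TPM in CON cells, 9.43 ± 0.188 in DDP cells, 6.96 ± 0.212 in TRF cells and 10.4 ± 0.445 in TRF+DDP cells, the lowest in TRF and the highest in TRF+DDP.

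**Figure D4:**
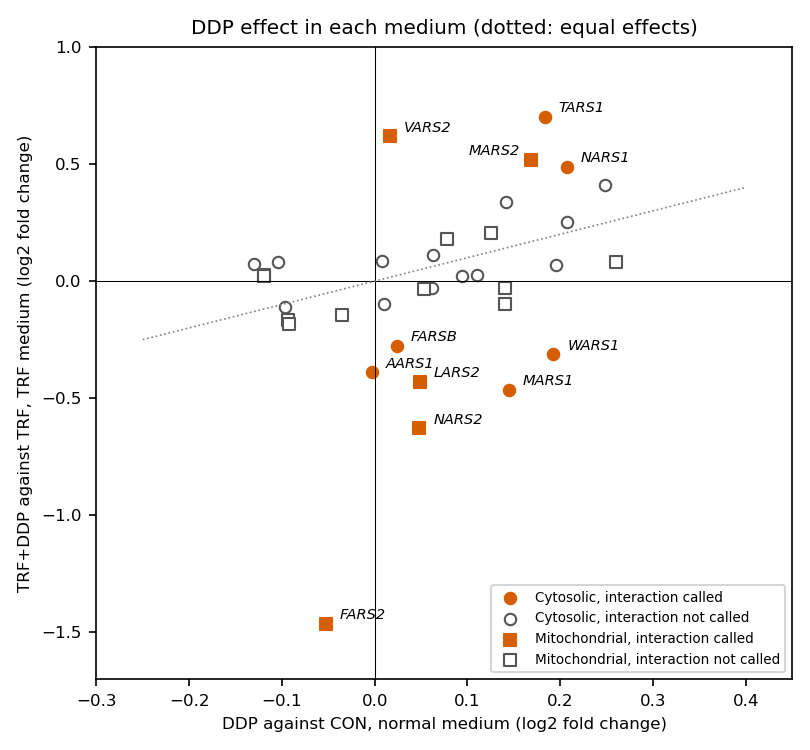
Log2 fold change with DDP in normal medium (DDP against CON, horizontal axis) and in TRF medium (TRF+DDP against TRF, vertical axis) for cytosolic (circles) and mitochondrial (squares) synthetases, filled and named where the interaction was called; the dotted line marks equal effects. FARS2 lies far below the line at -1.47, while VARS2, TARS1, MARS2 and NARS1 lie above it.

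The combination against untreated cells shares its libraries with the comparisons above. TRF+DDP against CON, 10 synthetases rose and 4 fell, where 15.6% of all genes tested rose and 19.5% fell. Of the cytosolic genes 8 rose (SARS1, WARS1, VARS1, FARSA, EPRS1, GARS1, RARS1 and NARS1) and AARS1 and QARS1 fell. Of the mitochondrial genes CARS2 and YARS2 rose and FARS2 and IARS2 fell. The log2 fold change ran from -1.23 for FARS2 and -1.21 for AARS1 to 1.16 for WARS1 and 1.22 for SARS1, with medians of 0.47 for the cytosolic, -0.020 for the mitochondrial (0.037 after quantile normalization) and -0.027 for all genes tested. Against CON, 20 synthetases did not overlap on the higher side and 7 on the lower (34.7% and 37.9% of all genes tested). Of the 35 genes, 11 cytosolic and 6 mitochondrial ones were called in at least 1 pairwise comparison. The share of all genes tested called in at least 1 was not computed, so these counts cannot be set against it.

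The other 18 were called in none, 8 cytosolic and 10 mitochondrial. LARS1, the leucyl enzyme of the complex, averaged 38.1 ± 0.979 TPM in CON cells, 38.5 ± 2.27 in DDP cells, 39.9 ± 1.27 in TRF cells and 37.3 ± 1.95 in TRF+DDP cells, with the TRF libraries above those of CON and the other groups overlapping. HARS1, the histidyl enzyme, was at 69.96 ± 2.45 TPM in CON cells, 70.3 ± 0.518 in DDP cells, 87.5 ± 3.77 in TRF cells and 92.8 ± 2.13 in TRF+DDP cells, with 0.32 and 0.40 for the 2 changes of medium. YARS1, the tyrosyl enzyme, was at 62.2 ± 2.48 TPM in CON cells, 64.97 ± 3.26 in DDP cells, 80.7 ± 2.19 in TRF cells and 79 ± 1.16 in TRF+DDP cells. Both genes were higher in all libraries of TRF medium than in normal medium without reaching the fold threshold. S100PBP (10.1 TPM) overlaps YARS1 over 1387 bases on the opposite strand, so the YARS1 value is uncertain without strand. CARS1 was at 37.02 ± 0.391 TPM in CON cells, 42.5 ± 0.340 in DDP cells, 42.02 ± 0.984 in TRF cells and 44.1 ± 0.888 in TRF+DDP cells, lowest in CON.

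Of the mitochondrial genes never called, AARS2, the alanyl enzyme, was at 5.60 ± 0.190 TPM in CON cells, 6.28 ± 0.324 in DDP cells, 8.14 ± 0.938 in TRF cells and 7.93 ± 0.377 in TRF+DDP cells. HARS2 was at 39.5 ± 0.427 TPM in CON cells, 36.3 ± 0.757 in DDP cells, 36.8 ± 0.988 in TRF cells and 37.5 ± 1.16 in TRF+DDP cells, and its gene overlaps ZMAT2 over 639 bases on the same strand (114 TPM) and HARS1 over 437 bases on the opposite strand, which makes its value uncertain. EARS2, the glutamyl enzyme, was at 17.95 ± 2.63 TPM in CON cells, 16.6 ± 0.668 in DDP cells, 20.1 ± 1.44 in TRF cells and 17.9 ± 2.67 in TRF+DDP cells. EARS2 also charges the glutamine tRNA of mitochondria, which the GatCAB amidotransferase then converts. RARS2, the arginyl enzyme, was at 13.1 ± 1.53 TPM in CON cells, 14.6 ± 1.19 in DDP cells, 16.4 ± 0.935 in TRF cells and 15.2 ± 0.875 in TRF+DDP cells. SARS2, the seryl enzyme, was at 24.3 ± 0.910 TPM in CON cells, 23.7 ± 0.981 in DDP cells, 27.1 ± 0.604 in TRF cells and 24.4 ± 1.22 in TRF+DDP cells, and TARS2, the threonyl enzyme, was at 13.8 ± 0.307 TPM in CON cells, 14.4 ± 1.06 in DDP cells, 14.6 ± 1.16 in TRF cells and 14.3 ± 1.70 in TRF+DDP cells. SARS2 shares 15493 bases with AC011455.2 on the same strand (6.54 TPM) and 349 bases with MRPS12 on the opposite strand (164 TPM), so its value is uncertain. The lowest were WARS2, the tryptophanyl enzyme, at 4.81 ± 0.505 TPM in CON cells, 4.49 ± 0.925 in DDP cells, 5.44 ± 0.523 in TRF cells and 4.66 ± 0.276 in TRF+DDP cells, and PARS2 at 4.09 ± 0.372 TPM in CON cells, 4.55 ± 0.426 in DDP cells, 3.16 ± 0.239 in TRF cells and 3.80 ± 0.273 in TRF+DDP cells. AARS2 had a log2 fold change of 0.46 in TRF against CON, with the TRF libraries above those in normal medium, and passed the fold threshold after quantile normalization (0.65).

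Cytosolic rises were found on and off the list of known ATF4 targets. Of the 11 synthetases on that list 4 rose and 1 fell in TRF against CON (8.41% and 17.1% of all genes tested), and of the 8 other cytosolic genes 3 rose and 1 fell. The medians were 0.37 and 0.55. TRF+DDP against DDP gave the same counts for both (11.8% and 21.4% of all genes tested), with medians of 0.33 and 0.48. Of the 7 complex members 2 rose (RARS1 and EPRS1) and QARS1 fell in each change of medium, beside the same shares of all genes, and of the 12 cytosolic genes outside the complex 5 rose and AARS1 fell. ATF4 itself had log2 fold changes of -1.28 and -0.75 in the 2 changes of medium, and ASNS, the asparagine synthetase gene that ATF4 is known to drive, had 3.72 and 4.08. Of 22 amino acid response genes without synthetases, 5 rose and 10 fell in TRF against CON, and 10 rose and 7 fell in TRF+DDP against DDP, beside those shares. Not all of them moved as ASNS did. From CON to TRF cells the mean went from 690 to 189 TPM for DDIT4, 22.2 to 11.4 for VLDLR and 3.60 to 1.51 for CTH.

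Of 17 other genes of tRNA charging, 4 rose in TRF against CON: AIMP1, the complex scaffold (0.63), DTD1, which removes D-amino acids from tRNA (0.82), TRNT1, which adds the CCA end of tRNAs (0.59), and PSTK, a kinase on the path to selenocysteine tRNA (0.99). None fell by limma, where 8.41% of all genes tested rose and 17.1% fell. At an unadjusted p under 0.05, 2 were lower, and the share of all genes at that threshold was not computed. TRF+DDP against DDP, 4 rose and 1 fell (11.8% and 21.4% of all genes tested): AIMP1 (0.79), the scaffold EEF1E1 (0.63), TRNT1 (0.91) and PSTK (1.09) rose, and GATB, a subunit of the mitochondrial amidotransferase that works after EARS2, fell by 0.62. TRF+DDP against TRF, DTD1 fell by 0.82 and GATB by 0.60, where 6.10% of all genes tested fell.

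The genes with the lowest values in TRF+DDP against TRF included the longest ones. Gene span was looked at after the values were seen. The synthetase genes over 100 kb in GENCODE v29 were FARS2 (568 kb), LARS2 (161 kb), NARS2 (139 kb) and WARS2 (109 kb), all mitochondrial, with log2 fold changes of -1.47, -0.43, -0.63 and -0.18. Across the 35 genes, which share the libraries and are not independent, Pearson's r between the log10 span and the change was -0.66 (Spearman's rho -0.52), and without FARS2 -0.52 (-0.48). Over 11874 coding genes tested it was -0.30 (-0.26), and the median change was -0.21 for the 2263 coding genes over 100 kb and 0.098 for the rest. Across the synthetases r was 0.19 in TRF against CON (0.21 without FARS2), -0.021 in DDP against CON (0.071), -0.29 in TRF+DDP against DDP (-0.12) and -0.27 in TRF+DDP against CON (-0.091). Over the coding genes r was -0.11, 0.092, -0.32 and -0.27 in the same order, so it was not particular to TRF+DDP against TRF. In TRF+DDP against DDP the median change was -0.53 for the coding genes over 100 kb and 0.0004 for the rest. The part of gene span in the fall of FARS2 and NARS2 was not tested.

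**Figure D5:**
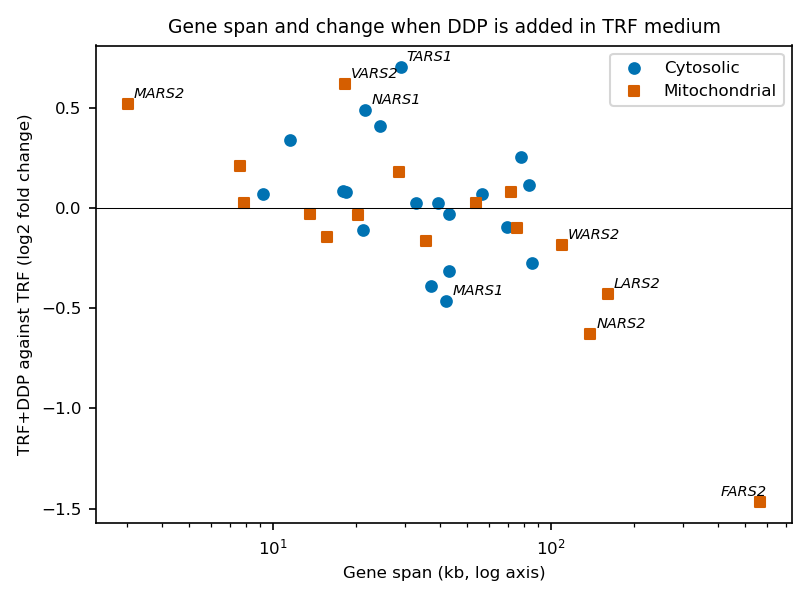
Gene span in kb (horizontal log axis) against the log2 fold change of TRF+DDP against TRF (vertical axis) for the 19 cytosolic (circles) and 16 mitochondrial (squares) synthetase genes. FARS2 is at the lower right with 568 kb and -1.47, and the other named genes over 100 kb lie below 0.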

How the data were processed

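RNA was selected with oligo(dT) and sequenced from 12 libraries, 3 in each of CON, DDP, TRF and TRF+DDP. The labels name the line A549/DDP, while their extraction text names A549 tumor cells. The authors used SeqPrep and Sickle for trimming, HISAT2 for alignment and StringTie for assembly, and deposited TPM per gene for 60902 genes (60664 Ensembl genes and 238 assembled loci, 60463 with a symbol). The submitters' notes also name edgeR, which was not used here. Not given in the sources used here are strand use, quantification tool, program versions and genome build. TPM is scaled to the same total in each library, so depth and counting error are unknown. The authors' 4 group means were not used.

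The 13854 genes averaging 1 TPM or more, all 35 synthetases among them, were taken as log2(TPM + 1), and limma 3.58.1 (R 4.3.3; trend and robust) fitted all 12 libraries in 1 model, with p-values adjusted by the Benjamini-Hochberg method over all genes tested. Calls needed an adjusted p below 0.05 together with more than a 1.5-fold change, and for the interaction the adjusted p only. Fold changes on this scale understate the change of low genes. Standard errors are limma's, and ± marks the SD over the 3 libraries. The labels do not say that replicates were separate cultures, so p-values measure only the spread between these samples. Summaries were made with Python 3.11.15, pandas 2.3.3 and numpy 2.4.6, and figures with matplotlib 3.10.9.

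Per-library values are given for every synthetase called in at least 1 pairwise comparison and group means for the others. Other genes of tRNA charging are named where they were called in a change of medium or in TRF+DDP against TRF. The amino acid response genes were counted, and most of those called are not named. MARS1, KARS1, FARSB, LARS2, MARS2, ATF4, ASNS, DDIT3, DDIT4, VLDLR and CTH were named for their values or role. The synthetases and all gene lists were chosen with earlier results of these data known. Positions and overlaps come from GENCODE v29 (GRCh38) by Ensembl identifier and promoters from RefSeq (GRCh38.p14). Not every overlap of a synthetase with another gene is named. Alternatives were a pseudocount of 0.1, no filter on low values, TMM-style scaling (trims of 0.3 and 0.05), quantile normalization, limma without trend and robust, no fold threshold, a replicate block, fits on the compared groups alone and leaving out each library. Fits were tested on simulated data.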

Additional observations from a re-analysis of the deposited data

Results flagged for a closer look

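Besides the 3 largest, the effect of DDP in TRF medium minus its effect in normal medium passed a limma adjusted p under 0.05 for 8 more synthetases, 11 of 35 in all, beside 29.8% of all genes tested. On the log2(TPM + 1) scale the cytosolic differences were -0.61 for MARS1 (adjusted p = 0.0414), -0.51 for WARS1 (0.000737), -0.39 for AARS1 (0.000858), -0.30 for FARSB (0.00768), 0.28 for NARS1 (0.0496) and 0.52 for TARS1 (0.0292). The mitochondrial differences were -1.41 for FARS2 (0.000338), -0.68 for NARS2 (0.00158), -0.48 for LARS2 (0.00285), 0.35 for MARS2 (0.0247) and 0.60 for VARS2 (0.0192).

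WARS1 shows how such a difference reads in levels, at 74.8 ± 2.90 TPM in CON cells, 85.7 ± 4.64 in DDP cells, 210.2 ± 12.2 in TRF cells and 169 ± 9.31 in TRF+DDP cells, higher with the drug in normal medium and lower with it in TRF medium. AARS1 overlapped between CON and DDP (129 ± 4.42 and 128 ± 5.32 TPM) and was lower with the drug in TRF medium (72.3 ± 2.03 and 54.9 ± 1.87 TPM). FARSB had a change of 0.024 in normal medium and -0.28 in TRF medium.

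The calls of NARS1, MARS1, TARS1 and MARS2 were lost most often. That of NARS1 was lost in 14 of 20 alternatives, among them the removal of any single library except DDP replicate 2 and TRF replicate 2 (adjusted p up to 0.114, limma). MARS1 lost it in 12, among them the removal of any library except DDP replicate 2, TRF replicate 2 and TRF+DDP replicate 2 (adjusted p up to 0.0922). TARS1 lost it in 7, among them without CON replicate 1, DDP replicate 1 or 3, TRF replicate 1 or TRF+DDP replicate 1 (adjusted p up to 0.0700). MARS2 lost it in 4, among them without CON replicate 3, DDP replicate 1 or TRF+DDP replicate 1 (adjusted p up to 0.0593). The differences kept their sign throughout, from 0.23 to 0.37 for NARS1, -0.73 to -0.46 for MARS1, 0.41 to 0.59 for TARS1 and 0.29 to 0.39 for MARS2 with 1 library left out.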

How the results depend on the processing

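Among single genes no log2 fold change called as higher or lower reversed under any alternative; over all 35 genes, 6 comparisons and alternatives, 62 values lost a call, 71 gained one and 4242 kept their side of the thresholds. Without the fold threshold, 18 synthetases were called higher and 6 lower in TRF against CON (3284 and 5128 of all 13854 genes tested). TRF+DDP against DDP gave 16 higher and 6 lower (3740 and 5316 of all genes). DDP against CON gave 3 higher and 0 lower (1389 and 301). TRF+DDP against TRF gave 8 higher and 8 lower (3891 and 2748), and TRF+DDP against CON gave 19 and 6 (4426 and 4888). With a fold over 1.5 added, 1 interaction was called on the positive side and 3 on the negative (825 and 1020 of all genes). Without the filter on low values 1 was called on the positive side (1458 of 31871 genes).

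Depth is unknown, so no counting error could be given. With TMM-style scaling the median of all genes in TRF+DDP against DDP moved from -0.096 to 0.0049, with 2122 genes called higher and 2390 lower in place of 1631 and 2968; in TRF+DDP against TRF these were 1169 and 1061 in place of 1413 and 845, and in DDP against CON 169 and 37 in place of 257 and 22. The same scaling gave medians of the cytosolic and mitochondrial genes of 0.58 and 0.25 in TRF against CON, 0.51 and 0.16 in TRF+DDP against DDP, 0.014 and -0.027 in DDP against CON, and -0.0098 and -0.10 in TRF+DDP against TRF, where 1 synthetase was called higher. Quantile normalization gave a mitochondrial median of 0.23 in TRF against CON, a cytosolic median of 0.37 in TRF+DDP against DDP, 0.038 and -0.038 for the 2 sets in DDP against CON, -0.027 and -0.11 in TRF+DDP against TRF, where 1 synthetase was called higher, and 0.40 and 0.037 in TRF+DDP against CON. The cause of these shifts was not tested.

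With 1 library left out, called synthetases ranged from 6 to 9 higher and 3 to 4 lower in TRF against CON, 6 to 8 higher in TRF+DDP against DDP, 1 to 2 higher (1 without TRF replicate 3 or TRF+DDP replicate 1) and 1 to 2 lower (1 without TRF replicate 3) in TRF+DDP against TRF, and 1 to 4 positive interactions (1 without DDP replicate 1 or TRF+DDP replicate 1, 2 without CON replicate 3 or DDP replicate 3). Of 13835 to 13922 genes tested, the same fits called 1143 to 1201 higher and 2268 to 2632 lower in TRF against CON. They called 1574 to 1683 higher in TRF+DDP against DDP, and 1302 to 1635 higher and 821 to 911 lower in TRF+DDP against TRF. Positive interactions over all genes numbered 1474 to 2195. The cytosolic median ranged from 0.38 to 0.41 in TRF+DDP against DDP, 0.076 to 0.13 in DDP against CON (0.13 without CON replicate 2), 0.043 to 0.079 in TRF+DDP against TRF (0.043 without TRF+DDP replicate 1), 0.42 to 0.48 in TRF+DDP against CON and -0.047 to 0.0097 for the interaction, and the mitochondrial median from -0.097 to 0.0024 in TRF+DDP against TRF (-0.097 without TRF replicate 3).

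The labels give replicate numbers 1 to 3 in every group without saying that a number marks a shared culture or day. Deviations of same-numbered libraries from their group means correlated at -0.082 to 0.079, and those of different numbers at -0.083 to 0.126, so the numbers were not taken to pair the samples. A fit with the replicate number as a block called 8 higher and 4 lower in TRF against CON (1171 and 2373 of all 13854 genes tested). It called 7 and 3 in TRF+DDP against DDP (1630 and 2960), and 2 and 2 in TRF+DDP against TRF (1415 and 851). TRF+DDP against CON gave 10 and 4 (2156 and 2708), and DDP against CON 0 (251 and 23). For the interaction it called 4 and 6 (1821 and 2250), where MARS1 was the call lost (adjusted p = 0.0527, limma).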
